A study of Mus musculus with 5 samples.

Results

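Gata6 peaks in close pairs are neighbouring binding regions on an autosome that have each other, and no further peak, nearby. The members were chosen by the measured peak positions: midpoints were sorted along each of the 19 autosomes, neighbours at most 10 kb apart were joined, and all groups of exactly 2 peaks were kept. This gave 717 pairs, or 1434 of the 7680 autosomal peaks (18.7%, exact 95% binomial interval 17.8 to 19.6%) and of 7737 peaks in the whole list. The interval holds for counting error alone and assumes independent peaks, which members of pairs are not, so it is too narrow. The other autosomal peaks were 5449 single peaks with no other midpoint within 10 kb and 797 peaks in 223 groups of 3 or more. Pairs therefore made up 76.3% of the 940 groups that held more than a single peak.

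Gata6 belongs to the GATA family of zinc-finger proteins, which recognise GATA motifs in DNA and switch genes on or off. In the pancreas it is known for its part in forming and keeping the enzyme-secreting acinar tissue. Factors of this kind often bind several regulatory regions around a target gene, so that binding regions can lie near each other. In a peak list, a continuous stretch of enrichment can also appear as several intervals, depending on how the peak caller splits it.

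Chromatin immunoprecipitation with sequencing (ChIP-seq) used a Gata6 antibody on pancreas of wild-type C57BL/6 mice, a tissue of mostly acinar cells with ducts, islets and vessels. Of the 4 Gata6 libraries, 2 came from animals 5 weeks old and 2 from animals 14 weeks old, and 1 further library held DNA of the 4 input replicates, pooled, as background. The deposited result was 1 list of peak positions on the mouse build mm9, with no value for any library, age or the input. Depth is therefore unknown, spread between mice could not be computed, and the tissue could not be checked against marker genes. Peaks of 1 list are not replicates, so differences between kinds of peaks are given as measured values, without a test. Neither mm9 gene annotation nor mm9 sequence was used here, so pairs are named by chromosome, position and cytogenetic band, and their genes, exons and motifs are not described.

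The midpoints of a pair lay 3988 bp apart at the median, with quartiles at 1841 and 6961 bp, a lowest value of 366 bp and a highest of 9997 bp. The rule set the upper end of this range. Within it, short spacings were the more frequent. Between 1 and 2 kb there were 119 pairs, between 2 and 3 kb 89, and between 3 and 4 kb 74. From 5 kb to the limit each 1 kb step held 55 to 65 pairs. Below 1 kb there were 79, where peak width itself keeps midpoints apart, since no peaks of a pair overlapped or touched. In total 427 pairs (59.6%) were at most 5 kb apart. Over all neighbouring autosomal peaks, pairs and larger groups together, the count per 1 kb step fell from 249 between 1 and 2 kb to 87 between 9 and 10 kb, and between 10 and 20 kb it ranged from 58 to 78.

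**Figure D1:**
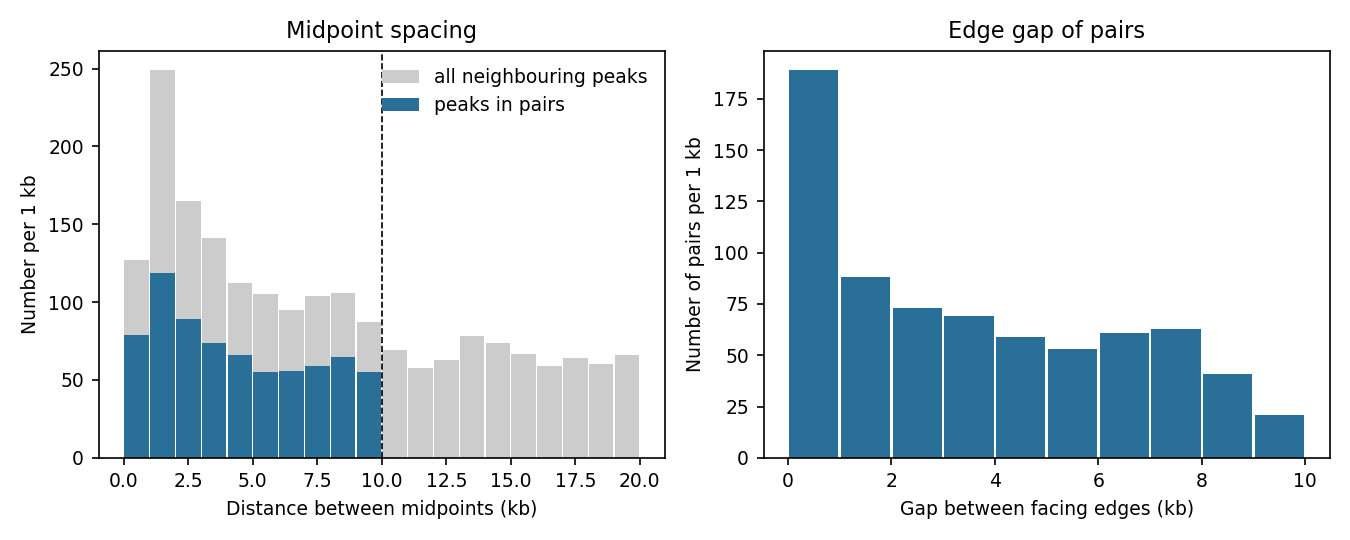
Left, number of neighbouring autosomal peaks per 1 kb of midpoint distance, for all neighbours (grey) and for peaks in pairs (blue, drawn over the grey), with the 10 kb limit dashed. Right, number of pairs per 1 kb of the gap between facing edges. Pairs are most frequent at 1 to 2 kb of spacing (119, against 79 below 1 kb) and at gaps under 1 kb (189).

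The unlisted sequence between the facing edges of a pair measured 3164 bp at the median, with quartiles at 918 and 6155 bp, a lowest value of 3 bp and a highest of 9544 bp. Gaps were under 500 bp in 138 pairs (19.2%), under 1 kb in 189 (26.4%) and under 2 kb in 277 (38.6%). The shortest class stood out in number. Gaps under 100 bp occurred in 57 pairs, gaps of 100 to 200 bp in 29 and gaps of 200 to 300 bp in 27, while the steps of 100 bp from 300 to 1000 bp held 6 to 15 pairs each. The 57 pairs with the shortest gaps spanned 1499 bp from outer edge to outer edge at the median. Whether such pairs are parts of a single enriched stretch was not tested, because the list has no signal between peaks.

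Set against the peaks themselves, the gap was shorter than the wider peak in 196 pairs (27.3%) and shorter than both peaks in 153 (21.3%). Most pairs were well separated: 440 had a gap of at least 2 kb, and 239 (33.3%) had one of at least 5 kb. A pair spanned 4785 bp at the median (interquartile range 2744 to 7863 bp, at most 11353 bp), of which the peaks covered 35.8% at the median. Together the pairs spanned 3807 kb, with 1227 kb inside peaks.

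The closest midpoints belonged to pairs of narrow peaks. Geometry forces this, since the mean width of peaks that do not overlap cannot exceed their spacing. On chromosome 3 band qE1, peaks at 65778327 to 65778788 (462 bp) and 65778796 to 65779051 (256 bp) had midpoints 366 bp apart and a gap of 7 bp. On chromosome 4 band qA2, peaks of 313 and 220 bp at 14949405 to 14949717 and 14949823 to 14950042 were spaced 371.5 bp. On chromosome 8 band qB3.1, peaks of 468 and 283 bp at 63433052 to 63433519 and 63433523 to 63433805 were spaced 378.5 bp. The others lay on chromosome 13 band qD1 at 98555041 to 98555492 and 98555517 to 98555792, spaced 388 bp, and on chromosome 11 band qB1.2 at 48647300 to 48647632 and 48647719 to 48648136, spaced 461.5 bp. In all of these the gap was at most 105 bp.

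Gaps of 3 bp, the smallest listed, separated the chromosome 8 pair just named and a pair on chromosome 7 band qD1 at 78556258 to 78556987 (730 bp) and 78556991 to 78557398 (408 bp). Gaps of 5 bp occurred on chromosome 1 band qH2.2 at 166178563 to 166179117 and 166179123 to 166179910, and on chromosome 10 band qD3 at 128025853 to 128026797 and 128026803 to 128027406. The chromosome 3 pair at 7 bp was next. The list consists of 94 runs of lines, each sorted by chromosome and start. Both members stood in the same run in 0 of the 57 pairs with a gap under 100 bp and in 27 of all 717 pairs (3.77%).

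At the other end, the pairs just inside the limit had spacings of 9997 bp (chromosome 10 band qC2, 90634252 to 90634887 and 90644037 to 90645096), 9994 bp (chromosome 7 band qD1, 77914440 to 77914928 and 77924473 to 77924883) and 9991 bp (chromosome 12 band qD1, 82134551 to 82135075 and 82144603 to 82145005). The nearest couples left out were spaced 10005 bp on chromosome 7 band qD1 (80534316 to 80534903 and 80544273 to 80544956), 10016 bp on chromosome 2 band qE5 (118369880 to 118370786 and 118380124 to 118380574) and 10020 bp on chromosome 14 band qD1 (64755210 to 64755837 and 64764817 to 64766270). Widths were 403 to 1060 bp in the pairs just inside and 451 to 1454 bp in the couples just outside, and these ranges overlapped. There were 55 pairs spaced 9 to 10 kb and 38 couples of single peaks spaced 10 to 11 kb with no nearer peak.

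Width was not used to choose the pairs. Paired peaks measured 760 bp at the median (interquartile range 560 to 1040 bp, extremes 190 and 3568 bp), between the 707 bp of single peaks (521 to 966 bp) and the 817 bp of peaks in groups of 3 or more (597 to 1127 bp). Widths over 1 kb were found in 398 paired peaks (27.8%), in 22.8% of single peaks and in 33.6% of peaks in larger groups. Widths under 400 bp were found in 7.95%, 10.4% and 6.27% of them, respectively. The medians of paired and single peaks differed by 53 bp, with 95% binomial intervals of 735 to 784 bp and 697 to 719 bp that treat peaks as independent, while the distributions overlapped over nearly their whole range. With a limit of 5 kb the difference was 27 bp, and with peaks merged across gaps of up to 2 kb it was 91 bp.

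**Figure D2:**
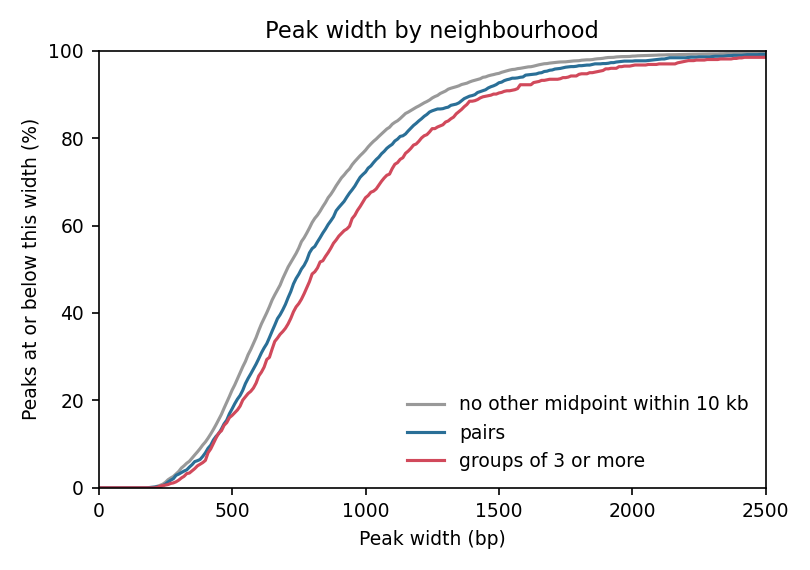
Percentage of autosomal peaks at or below each width in bp, for single peaks (grey), pairs (blue) and groups of 3 or more (red); the axis ends at 2500 bp. From 460 bp to the end of the axis the curve of paired peaks runs between the other curves, but at 450 bp and some smaller widths it does not. Medians are 707, 760 and 817 bp for single peaks, pairs and groups of 3 or more.

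The peaks of a pair were moderately alike in width. The wider was 1.40 times as wide as the narrower at the median, with an interquartile range of 1.20 to 1.89. The ratio was under 1.5 in 404 pairs (56.3%), above 2 in 150 (20.9%) and above 3 in 42 (5.86%). The narrower peak measured 626 bp and the wider 955 bp at the median, and the median difference within a pair was 261 bp. Neither side was favoured: the peak at the lower coordinate was the wider in 359 pairs and the peak at the higher coordinate in 358.

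For comparison, the same measures were taken over 4666 couples of single peaks next to each other on a chromosome. Their ratio was 1.51 at the median, 49.6% were under 1.5 and 25.8% above 2. Spearman's rho of the widths was 0.29 over the 717 pairs, 0.25 over the 574 couples of neighbours within groups of 3 or more, and 0.11 over the couples of single peaks. The points share 1 list, and the members of a couple share a chromosome. A single peak or a peak of a larger group can stand in 2 couples, whereas a paired peak stands in only 1 pair. These correlations are descriptions and carry no test.

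Wider members had wider partners. The partners of the narrowest 359 members (median 452 bp) measured 630 bp at the median, those of the next 359 measured 726 bp, those of the next 357 measured 825 bp, and those of the widest 359 (median 1319 bp) measured 889 bp. Over couples of single peaks the partner's median moved less, from 650 bp beside the narrowest 2341 entries to 750 bp beside the widest 2325 entries. Each couple enters from both sides, and a single peak can stand in more than 1 couple, so these entries include repeated peaks. Both peaks were wider than 1 kb in 74 pairs (10.3%), 1 of them in 250 (34.9%) and neither in 393 (54.8%). Among couples of single peaks these shares were 5.94%, 32.3% and 61.7%.

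**Figure D3:**
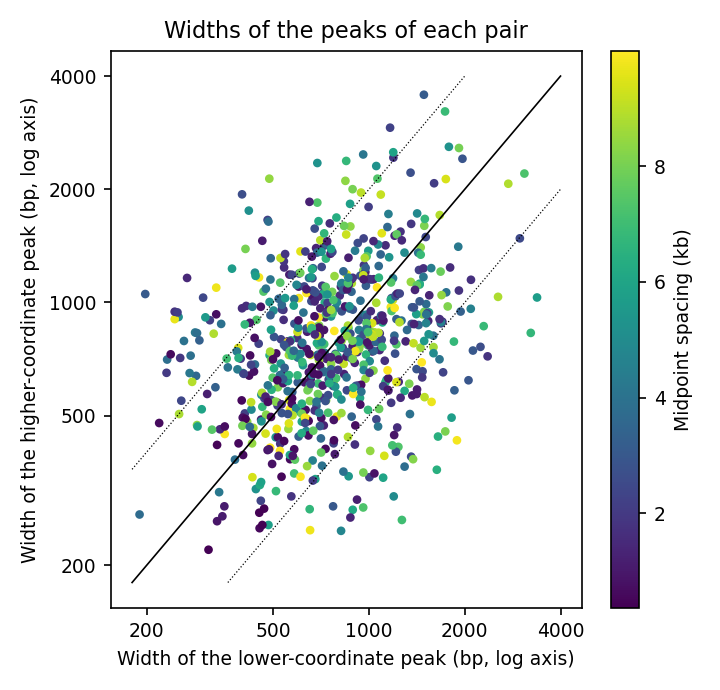
Width in bp of the lower-coordinate peak against that of the higher-coordinate peak for all 717 pairs, on log axes, coloured by midpoint spacing in kb. The solid line marks equal widths and the dotted lines a ratio of 2; 150 pairs lie outside the dotted lines, and the points spread evenly to both sides of the solid line.

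The likeness did not fade steadily with spacing. Spearman's correlation of the widths was 0.36 in 198 pairs spaced up to 2 kb, 0.21 in 163 pairs at 2 to 4 kb, 0.29 in 121 at 4 to 6 kb, 0.29 in 115 at 6 to 8 kb and 0.32 in 120 at 8 to 10 kb. The median ratio in these classes was 1.37, 1.51, 1.46, 1.39 and 1.32. Just past the limit, 406 couples of single peaks spaced 10 to 20 kb had a rho of 0.14 and a median ratio of 1.53, and for couples farther apart rho ranged from 0.06 to 0.14. At the shortest spacings width is bounded, since the mean width of peaks that do not overlap cannot exceed their spacing. The 138 pairs with a gap under 500 bp had the highest rho, 0.49, and without them it was 0.25. With only the 440 pairs with gaps of at least 2 kb it was 0.28, and with the 277 under 2 kb 0.31.

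Among wide peaks alone, rho and the median ratio were similar in pairs and in couples of single peaks. When only the 3833 peaks above the median width were grouped anew, their 314 pairs had a rho of 0.046 and their 2568 couples of single peaks one of 0.051, with median ratios of 1.29 and 1.26. Cutting the range of widths lowers any such correlation, in pairs as in couples, and grouping anew changes which peaks count as paired or single. The values therefore cannot show whether pairs and couples differ in likeness among wide peaks. By chromosome, rho was above 0 on all 17 autosomes with at least 20 pairs, from 0.08 on chromosome 13 (29 pairs) to 0.42 on chromosome 10 (40 pairs).

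**Figure D4:**
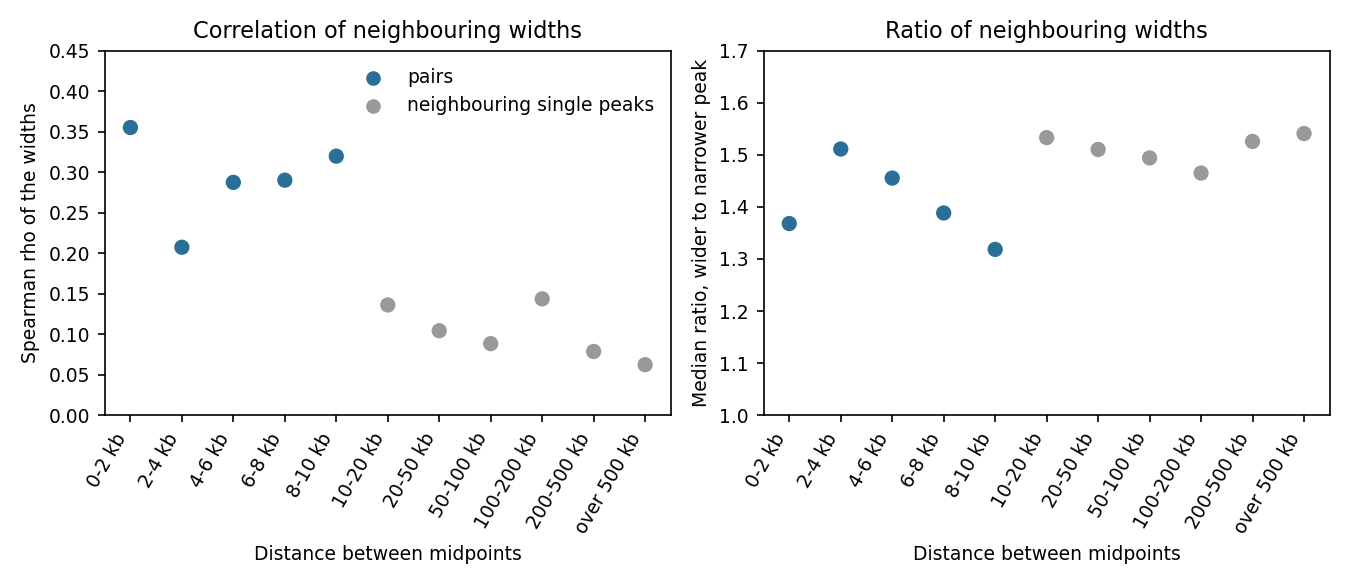
Spearman's rho of the widths (left) and median ratio of the wider to the narrower peak (right) by distance between midpoints, for pairs (blue) and for couples of neighbouring single peaks (grey). Pairs lie between 0.21 and 0.36 in rho, couples of single peaks between 0.06 and 0.14.

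The widest pair lay on chromosome 8 band qC3, with peaks of 3080 bp at 87246440 to 87249519 and 2202 bp at 87254136 to 87256337, a summed width of 5282 bp. The next, on chromosome 11 band qB3, joined peaks of 1488 bp (69228523 to 69230010) and 3568 bp (69230602 to 69234169) across a gap of 591 bp. Chromosome 10 held the next, in band qD3 at 127826345 to 127828078 and 127832505 to 127835725, with a summed width of 4955 bp, and in band qC1 at 79613658 to 79616398 and 79622849 to 79624917, with 4810 bp. The fifth, on chromosome 15 band qD2 at 66791992 to 66793909 and 66799655 to 66802229, summed to 4493 bp. Apart from the chromosome 11 pair, these had gaps of 4426 to 6450 bp. Over all pairs the gap had a median of 3164 bp and quartiles at 918 and 6155 bp.

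The least alike pair joined a peak of 198 bp at 109079310 to 109079507 on chromosome 7 band qE3 to one of 1053 bp at 109081940 to 109082992, a ratio of 5.32. Ratios of 4.86 and 4.81 followed on chromosome 6, in band qB1 (38869081 to 38869479 and 38870945 to 38872883) and in band qD3 (99037084 to 99038352 and 99044645 to 99044908). The fourth, on chromosome 2 band qH4 at 173901303 to 173902936 and 173908386 to 173908744, had a ratio of 4.55. The fifth, on chromosome 15 band qB3.1 at 37162050 to 37163939 and 37172611 to 37173040, had one of 4.40. In all of these a narrow peak of at most 430 bp stood beside one of more than 1 kb.

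**Figure D5:**
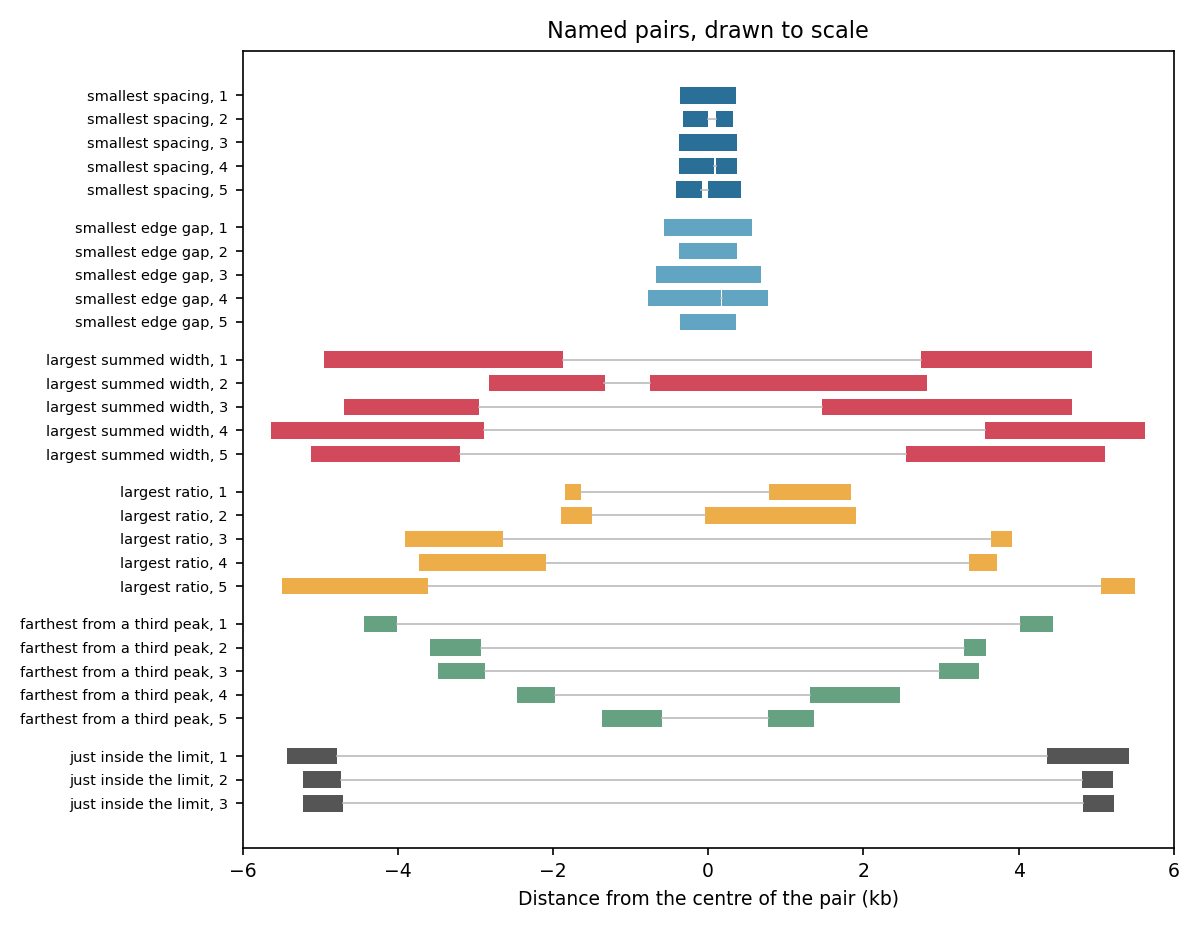
Peaks of the pairs named by position, drawn to scale as bars around the centre of each pair, with the distance in kb on the x axis; colours mark the property that named them, ranked from the top. The pairs of smallest spacing and smallest gap lie within 1 kb of their centre, while the pairs of largest summed width reach beyond 2.5 kb on both sides.

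Pairs were often close to further peaks. By the rule the nearest peak outside the pair is more than 10 kb away. It lay 41.7 kb from the nearer member at the median (interquartile range 19.5 to 86.3 kb), within 20 kb for 189 pairs (26.4%) and within 50 kb for 402 (56.1%). For single peaks, for which the rule sets the same lower limit, the nearest peak lay 61.6 kb away at the median (25.8 to 142.7 kb), within 20 kb for 17.6% and within 50 kb for 43.9%. The nearest outside peak was a single peak for 586 pairs (81.7%), a member of another pair for 97 (13.5%) and a member of a larger group for 34 (4.74%). Of all autosomal peaks, 71.0% were single, 18.7% stood in pairs and 10.4% in larger groups. Only the outer members of a larger group can be nearest, so these shares are not a matched comparison.

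Only 16 pairs (2.23%) had no outside peak within 500 kb, against 5.95% of single peaks. The most isolated lay on chromosome 18 band qE4, with peaks of 429 and 422 bp at 89141304 to 89141732 and 89149756 to 89150177 and the nearest outside peak 1599 kb away. On chromosome 4 band qC3, peaks of 651 and 282 bp at 80557543 to 80558193 and 80564419 to 80564700 were 1486 kb from the next peak. On chromosome 3 band qG2, peaks of 608 and 511 bp at 127533903 to 127534510 and 127540366 to 127540876 were 1235 kb from the next peak. The fourth lay on chromosome 4 band qE1 at 142747548 to 142748037 and 142751332 to 142752482 (979 kb) and the last on chromosome 3 band qH4 at 158222696 to 158223466 and 158224827 to 158225426 (894 kb). Of the 10 peaks of these pairs, 1 was wider than 1 kb.

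Every autosome held pairs, from 14 on chromosomes 14 and 16 to 69 on chromosome 11. The density over all autosomes was 0.290 pairs per Mb, with the highest on chromosome 11 (0.566) and chromosome 19 (0.538) and the lowest on chromosome 14 (0.112) and chromosome 16 (0.142). Over the 19 autosomes, Spearman's rho with peaks per Mb was 0.93 for pairs per Mb and 0.78 for the share of peaks in pairs. Paired peaks are among the peaks counted and both densities use the same length, so the first rho is partly built in. Whether peak density accounts for the differences between chromosomes was not tested. The share of a chromosome's peaks that stood in pairs ranged from 10.3% on chromosome 14 (exact 95% binomial interval 6.95 to 14.5%) to 23.2% on chromosome 19 (18.5 to 28.6%). The interval took in the pooled share of 18.7% on 15 autosomes. Chromosome 9 lay above it with 22.7% (18.8 to 27.1%), and chromosomes 12 (13.6%, 10.1 to 17.7%), 14 and 16 (11.7%, 7.93 to 16.5%) lay below it. Peaks in groups of 3 or more made up 6.16% of peaks on chromosome 9, against 10.4% over all autosomes. On chromosomes 12, 14 and 16 they made up 12.1%, 13.2% and 11.3%. The shares did not mirror each other on every chromosome. Chromosomes 4, 11 and 15 had 21.8%, 21.3% and 20.2% of peaks in pairs and 12.8%, 13.9% and 17.0% in larger groups. Chromosome 3 had 15.5% in pairs and 6.42% in larger groups. The intervals hold for counting error alone and assume independent peaks, which members of pairs are not, so they are too narrow.

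Cytogenetic bands are stained stretches of chromosomes, the dark ones of which tend to hold few genes and to replicate late. The share of peaks that stood in pairs was 19.5% in light bands (gneg, 361 pairs, interval 18.3 to 20.8%) and 19.4% in the palest stained class (gpos33, 145 pairs, 17.4 to 21.5%). It was 15.5% in gpos66 (69 pairs, 13.2 to 18.1%) and 17.9% in the darkest class (gpos100, 142 pairs, 16.02 to 19.85%). Per Mb, light bands and gpos33 bands both held 0.35 pairs, gpos66 bands 0.26 and the darkest bands 0.18. The low density in the darkest bands was not particular to pairs. These bands made up 31.2% of the autosomal length and held 19.8% of paired, 21.2% of single and 18.9% of larger-group peaks. Median spacing was 3878 to 4194 bp across these classes.

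Of 502 fixed windows of 1 Mb that held a pair, 156 held at least 2, with 371 of the 717 pairs in them. No matching count was made for single peaks. The windows with the most pairs, picked after their values were seen, held 6 each and lay on chromosome 5 at 125000001 to 126000000 (23 peaks in all) and on chromosome 19 at 10000001 to 11000000 (19 peaks).

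The order of lines, which the labels do not explain, did not keep the members of a pair together. Both were in the same sorted run in 27 pairs (3.77%), close to the 3.66% of couples of single peaks, and Spearman's rho of the run numbers was 0.09 within pairs and 0.02 in couples of single peaks. Over all autosomal peaks, run number and width had a rho of -0.20, so that wide peaks tended to stand early. Within the 690 pairs whose members stood in different runs, the wider member stood in the earlier run in 376 (54.5%), and in 87 of 143 (60.8%) where the ratio was above 2. Along the list, paired peaks made up 18.3%, 20.4%, 19.4% and 16.6% of successive blocks of 1920 autosomal peaks.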

How the data were processed

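Gata6 ChIP-seq and input libraries of mouse pancreas were grouped by their titles. The authors deposited 1 peak list for the series whose lines hold chromosome, start and end, in base pairs of mm9 and without a header, per the submitters' processing notes, which also name CASAVA 1.8 and BWA 0.5.9-r16 without a role. The list is labelled FDR1, with no explanation of the label. The peak caller, its settings and whether libraries were pooled are not stated in the labels. The list was treated as 1 pooled result. Starts, 0-based in the list, are printed 1-based. Midpoints, gaps and widths were computed with Python 3.11.15, numpy 2.4.6, pandas 2.3.3 and scipy 1.17.1, bands came from circlize 0.4.16 in R 4.3.3, and figures from matplotlib 3.10.9. The grouping was tested on simulated data with known pairs, spaced widely within the limit, and with groups far apart. Closely spaced peaks and neighbours just past the limit were not simulated. Pairs were named by position: the 5 with the smallest spacing, smallest gap, largest summed width, largest ratio and farthest outside peak, and the 3 on either side of the limit. The members and measures were chosen with earlier results of these data known. The gene and motif descriptions that had been planned were not run, as the tables at hand describe GRCm38.p6. Alternatives were limits of 5 and 20 kb, distance between edges, merging of peaks across 500 or 2000 bp, the wider peaks, the lines up to the median line, and X. Precision is limited by unknown depth.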

Additional observations from a re-analysis of the deposited data

Results flagged for a closer look

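The rule on autosomes left out peaks on other sequence. X carried 53 peaks and 1 pair, at 10294359 to 10295709 (1351 bp) and 10297517 to 10297894 (378 bp), spaced 2672 bp. Peaks on X enter no value above except the size of the whole list and the numbering of its runs. Another 4 peaks, which were not grouped, lay on unplaced parts of mm9.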

How the results depend on the processing

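Across 80 alternative values (8 measures under 10 settings), 46 stayed within their tolerance, 34 moved and none reversed in sign. Only rho and the width difference could reverse, as the counts, shares, distances, ratios and widths cannot be negative here. The tolerance was 1.5 times for the number of paired peaks and the width difference, 0.1 for rho, and the 95% binomial interval for shares and medians. The settings that kept only pairs with a wide gap were chosen after seeing the data. A limit of 5 kb gave a share in pairs of 14.0%, a median spacing of 2113 bp, a median gap of 1240 bp and a width difference from single peaks of 27 bp, and a limit of 20 kb gave 21.8%, 7357 bp and 6450 bp for the first 3. Merging across 500 bp gave a share of 17.1%, a spacing of 5066 bp, a gap of 4090 bp, a width ratio of 1.46 and a paired width of 790 bp, and merging across 2000 bp gave 14.9%, 6319 bp, 5245 bp, 1.51, 824 bp and a width difference of 91 bp. The wider peaks gave 628 paired peaks, a share of 16.4%, a spacing of 4386 bp, a ratio of 1.29, a rho of 0.046 and a width of 1032 bp. The lines up to the median line gave 550 paired peaks, 14.3% and a width of 844 bp. Pairs with a gap of at least 500 bp gave 15.1%, 5023 bp and 4129 bp, and those with at least 2000 bp gave 880 paired peaks, 11.5%, 6275 bp and 5425 bp. These settings change the limit, the gaps, the widths or the number of peaks by construction. Distance between edges and X moved no value past its tolerance. Unknown depth leaves unknown how many weaker peaks are missing, and a missed or added peak can turn a pair into a single peak or a larger group. Not run were central-sequence motif counts and leaving out a library, as the list is pooled. No paired analysis was possible because positions alone, without any value for a library, were analysed.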
